A study of Mus musculus with 4 samples.

Results

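Immunoglobulin constant region genes encode the part of an antibody that sets its isotype (heavy chain) or its light chain class. The 10 genes described here were taken by symbol from the 50593 genes of the table, 8 for heavy chains (Ighm, Ighd, Ighg3, Ighg1, Ighg2b, Ighg2c, Ighe and Igha) and 2 for light chains (Igkc and Iglc2). RNA of the sciatic nerve was sequenced at 6 months of age in 2 groups of strain 129S1/SvImJ, HSF V30M and HSF WT, with 2 mice in each by the labels. Mice of both groups are heterozygous for deletion of Hsf1, the gene of heat shock factor 1. HSF V30M mice also carry a transgene for human TTR V30M and have no functional mouse Ttr, while HSF WT mice carry no transgene. The promoter of the transgene is not given in the sources used here. The level of each gene is given once per group, as a number of fragments per kilobase of its transcripts, adjusted for how deeply each library was read (FPKM). Without values of single mice, no spread between mice is given and no test of the groups was run here.

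The targeted genes were looked at first. The FPKM of Hsf1 was 15.0 in the group labelled HSF WT and 7.94 in that labelled HSF V30M. Both groups have the same stated Hsf1 genotype, so Hsf1 does not check the labels, and the source of its difference was not tested. Mouse Ttr is listed at 0 in HSF WT by label, where 3 fragments stand for 0.197, and had 6.10 in HSF V30M by label. This goes against the null allele, and reads of human TTR and mouse Ttr cannot be told apart in this table, so Ttr does not check the labels. Exchanged labels would give the same Ttr values, and this was not tested. In all that follows, HSF V30M and HSF WT mean the groups so labelled, and each direction rests on those labels. The Schwann cell genes that define the tissue were high in both groups, with Mbp, myelin basic protein, at 3441 in HSF WT and 3854 in HSF V30M. The worth of 1 fragment placed the 2 libraries of HSF V30M 1.18-fold apart in depth and those of HSF WT 1.35-fold apart.

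A B cell first makes IgM and IgD from 1 rearranged variable region by splicing it to the mu or the delta constant exons. On class switching, the variable region is joined to a constant gene further along the locus, so that IgG, IgE or IgA is made in place of IgM. Plasma cells are the source of secreted antibody and hold very large amounts of these transcripts. The light chain is either kappa or lambda, and most antibody of the mouse is of the kappa class.

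The heavy chain genes lie on the minus strand of chromosome 12 of GRCm38, in the order Ighm, Ighd, Ighg3, Ighg1, Ighg2b, Ighg2c, Ighe and Igha. Ighm spans 113418558 to 113422730, and Igha, the last of the locus, spans 113254830 to 113260236 and starts 162 kb downstream of the start of Ighm. Igkc is on the plus strand of chromosome 6 (70726435 to 70726966) and consists of 1 exon, and Iglc2 is on the minus strand of chromosome 16 (19198396 to 19200351). The 4 IgG genes are close relatives, and the hinge exon is where they can be told apart by eye. It is shown here because the IgG genes differed most from each other between the groups. The hinge exons are given 5′ to 3′ on the coding strand from the GENCODE M21 transcripts (GRCm38), with in-frame cysteine codons, which in the hinge link the heavy chains, in capitals:
Ighg3 (chr12:113360529-113360576): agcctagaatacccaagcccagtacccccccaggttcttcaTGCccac
Ighg1 (chr12:113329844-113329882): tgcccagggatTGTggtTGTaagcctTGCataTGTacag
Ighg2b (chr12:113307261-113307326): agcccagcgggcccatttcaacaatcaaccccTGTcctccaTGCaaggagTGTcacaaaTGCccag
Ighg2c (chr12:113288263-113288325): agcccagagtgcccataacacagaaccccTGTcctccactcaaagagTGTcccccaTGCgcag
The exon is 39 bases long in Ighg1 and 66 in Ighg2b, and it holds 1 cysteine codon in Ighg3, 3 in Ighg2c and 4 in Ighg1 and in Ighg2b. Of the aligned hinge bases, 81.0% were the same in Ighg2b and Ighg2c, and 38.5% in Ighg3 and Ighg1.

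Sequence shared between genes makes the split of reads between them uncertain, so it was counted in words of 50 bases. Of the exonic words of Ighg2c, 5.49% also stand in Ighg2b, whose CH2 exon is 94.2% identical to that of Ighg2c. Of the words of Ighg2b, 3.04% stand in another heavy chain gene, and of those of Ighg1, 0.393%. None of the other 5 heavy chain genes shared a word of this length with another. The reference strain, C57BL/6J, carries Ighg2c where some other mouse strains carry Ighg2a, for which the table has no row. The mice here are of another strain than the reference, and which of these genes they carry was not looked at. Reads of Ighg2a could align to Ighg2c, so the values given for Ighg2c may stand for Ighg2a in part or in whole. This was not tested. The shared words were counted in the reference strain only.

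All 10 genes were lower in HSF V30M nerve than in HSF WT nerve, by 2.69-fold for Ighg2c to 60.4-fold for Ighg3. Summed over the 10 genes, the level was 2021 FPKM in HSF WT and 133 in HSF V30M. On the log2 scale with 1 added to each FPKM, which understates the difference of low genes, 9 of the 10 were past a 2-fold difference, beside 3.94% of the 15620 genes whose mean FPKM was 1 or more. Ighd was the exception at -0.95. Without the added 1, all 10 were past 2-fold, beside 4.32% of all genes, and 5 were past 16-fold, beside 0.304%. Of these 5, Ighm, Ighg3 and Igkc had their whole counting interval past 16-fold, while Ighe and Iglc2 rest on 2 to 3 fragments in HSF V30M. The median log2 ratio was -2.60 over the 10 genes and 0.0030 over all genes. In bulk tissue, fewer cells of a type and less RNA per cell cannot be told apart. Ighd, Ighe and Iglc2 reached the mean of 1 through their HSF WT values alone.

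**Figure D1:**
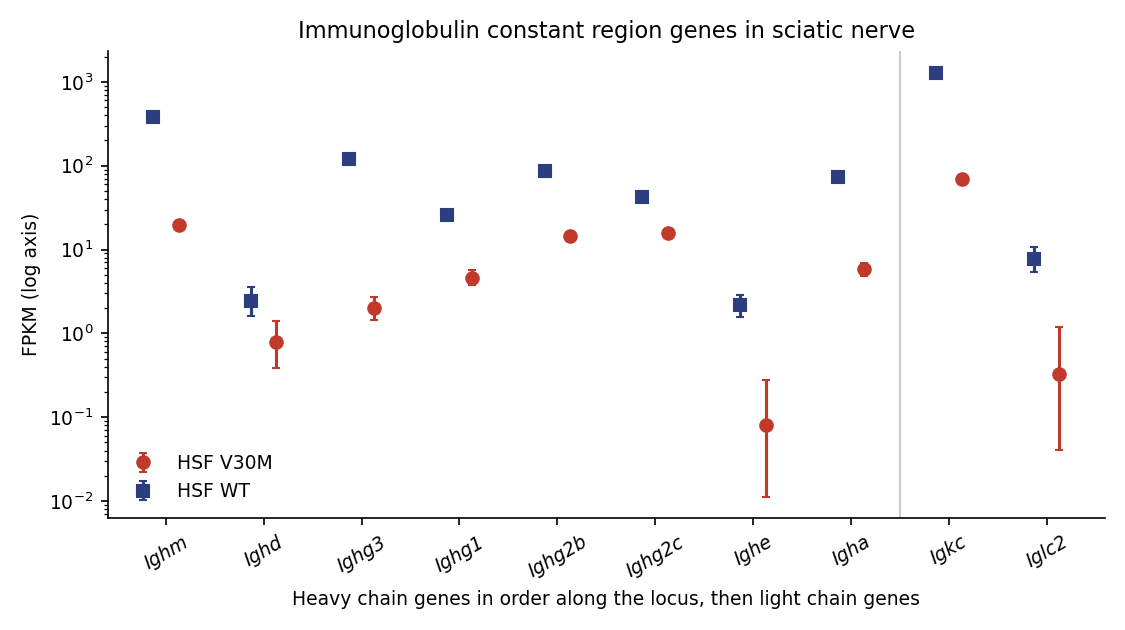
FPKM (log axis) of each constant region gene in HSF WT (squares) and HSF V30M (circles), 1 value per group. Bars are 95% Poisson intervals on the estimated fragments and cover counting error only. Every circle lies below its square, and the intervals of the 2 groups do not overlap for any of the 10 genes.

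**Figure D2:**
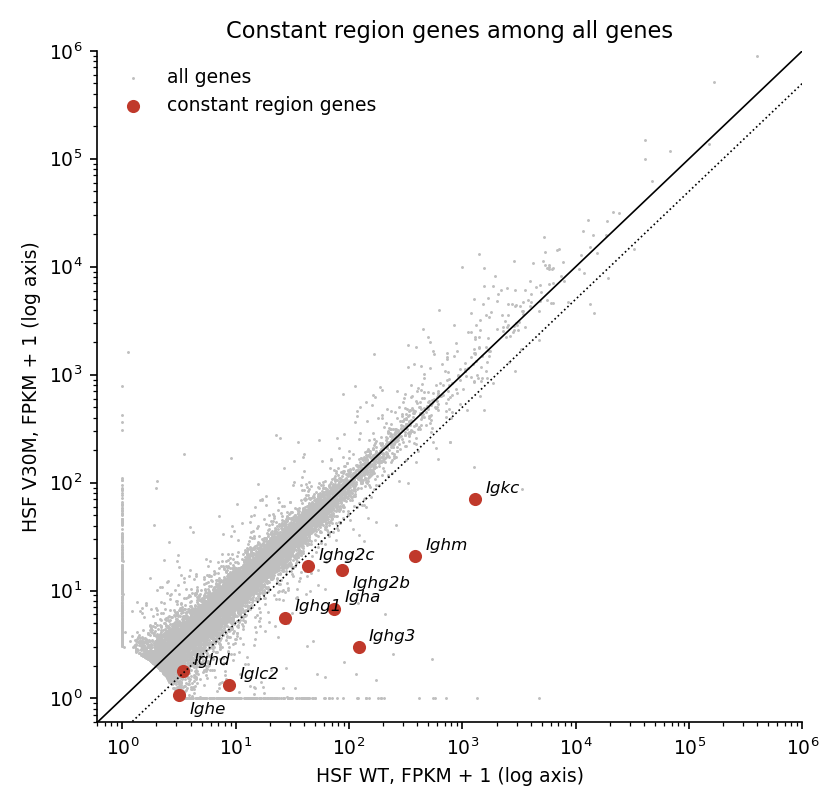
FPKM + 1 in HSF V30M against HSF WT (both log axes) for the 15620 genes whose mean FPKM was 1 or more (grey) and the 10 constant region genes (red). The solid line marks equal values and the dotted line a 2-fold lower value in HSF V30M, and 9 of the 10 red points lie below the dotted line.

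Of the genes of unswitched B cells, Ighm encodes the mu chain of IgM, the first isotype made and the heavy chain of surface IgM and of the secreted pentamer. Its FPKM was 378 in HSF WT, about 7558 to 11790 fragments, and 19.9 in HSF V30M, about 561 to 765. This is a 19.1-fold difference, with a 95% counting interval of 17.6 to 20.7, which covers counting error only and not the spread between mice. Ighd, the delta chain that mature naive B cells carry beside IgM, reached 2.43 in HSF WT and 0.78 in HSF V30M. These stand for 23 to 81 and 10 to 32 fragments, and the 3.12-fold difference has a counting interval of 1.49 to 6.97. Both genes are read from the same start of transcription, and the level of Ighm over Ighd was 156 in HSF WT and 25.4 in HSF V30M. The counting intervals of the 2 folds did not overlap.

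The 4 IgG genes together had 36.9 FPKM in HSF V30M and 275 in HSF WT, a 7.44-fold difference, and the single genes differed from each other in fold. Ighg3, the isotype known for responses to polysaccharide antigens, had 120 in HSF WT, or 1637 to 2204 fragments, and 1.99 in HSF V30M, or 38 to 45. Its fold of 60.4 (counting interval 44.4 to 84.2) was the highest of the 10 genes, and its interval lay above those of the other IgG genes. Ighg1, the isotype associated with type 2 responses, had 26.0 in HSF WT and 4.61 in HSF V30M, a 5.63-fold difference with an interval of 4.49 to 7.11. Ighg2b, another IgG gene, had 86.4 in HSF WT and 14.6 in HSF V30M, 5.93-fold with an interval of 5.24 to 6.72, which overlaps that of Ighg1. Ighg2c, the isotype associated with interferon-driven responses, had 42.4 in HSF WT and 15.8 in HSF V30M, 2.69-fold with an interval of 2.36 to 3.07. The level of Ighg2c over Ighg3 was thus 7.91 in HSF V30M and 0.353 in HSF WT.

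Igha encodes the alpha chain of IgA, the main antibody of mucosal surfaces. Its level was 72.7 in HSF WT and 5.81 in HSF V30M, and its 12.5-fold difference had a counting interval of 10.4 to 15.2, between those of Ighg1 or Ighg2b and that of Ighm. Ighe encodes the epsilon chain of IgE, the antibody that arms mast cells. It was close to the limit of detection, with 0.08 in HSF V30M, about 2 fragments, and 2.16 in HSF WT, or 39 to 52 fragments. The ratio of 27.0 has a counting interval of 7.44 to 199, which overlaps those of Ighg3, Ighm and Igha.

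**Figure D3:**
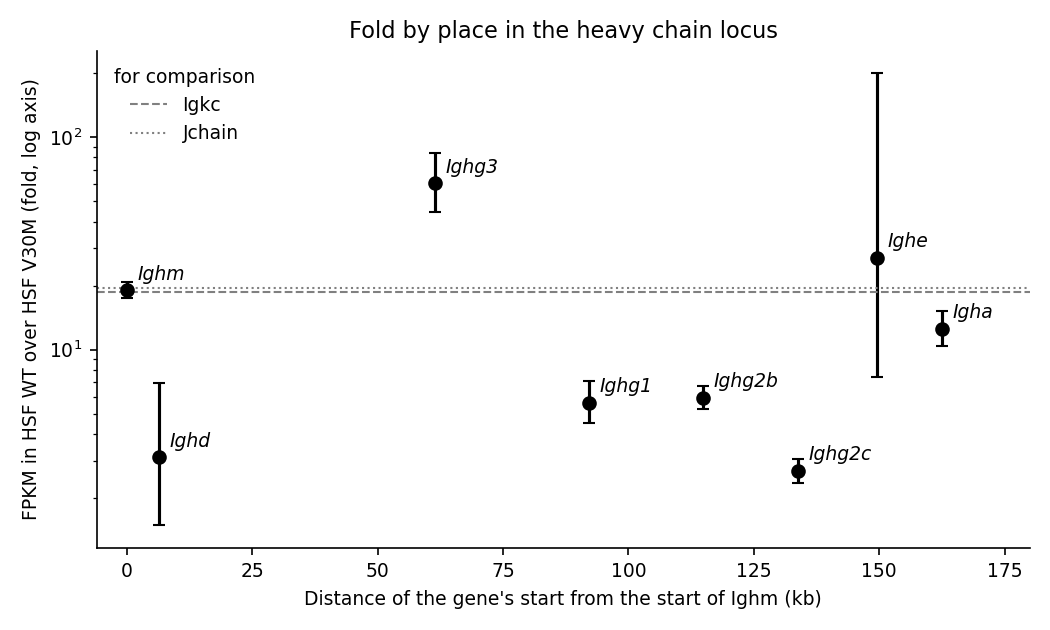
Fold of FPKM in HSF WT over HSF V30M (log axis) for the 8 heavy chain genes against the distance of each gene's start from the start of Ighm in kb. Bars are 95% counting intervals, and the horizontal lines give Igkc (18.6) and Jchain (19.5). The folds go from 2.69 for Ighg2c to 60.4 for Ighg3 and do not follow the order of the genes.

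The isotype make-up of the heavy chain transcripts also differed. As a share of the FPKM summed over the 8 heavy chain genes, Ighm was 51.8% in HSF WT and 31.3% in HSF V30M, and the 4 IgG genes together were 37.6% in HSF WT and 58.2% in HSF V30M. Ighg2c made up 24.8% in HSF V30M and 5.80% in HSF WT, and Ighg2b 23.0% and 11.8%. Ighg3 went the other way, with 3.14% in HSF V30M and 16.4% in HSF WT. Igha had nearly the same share in both, 9.16% and 9.95%. Ighg1 made up 7.27% in HSF V30M and 3.55% in HSF WT. Ighd had 1.23% and 0.333%, and Ighe 0.126% and 0.296%. There is 1 value per group behind each share, so the spread of these shares between mice is not known.

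**Figure D4:**
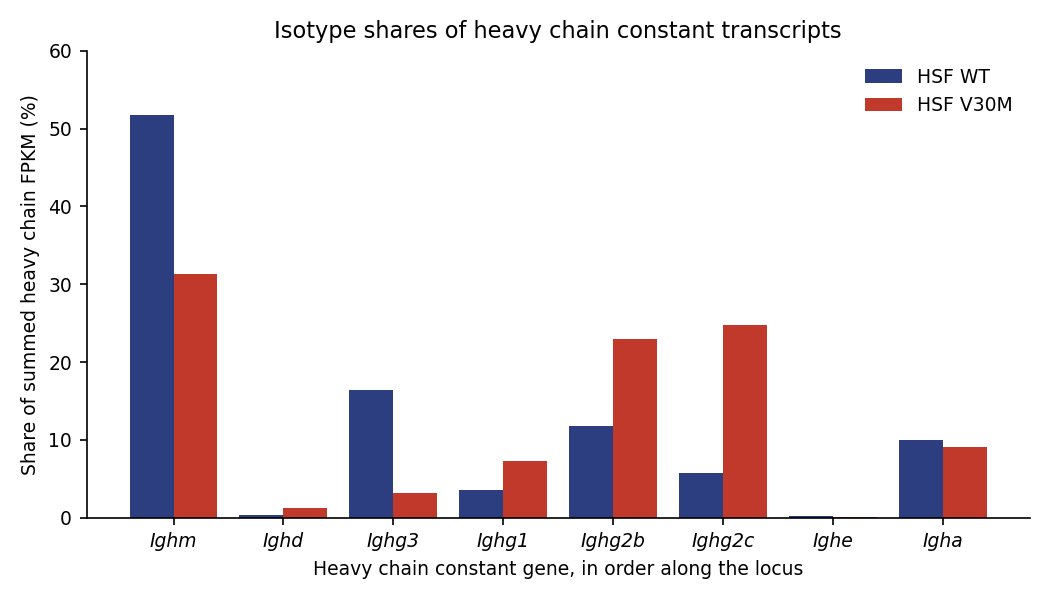
Share (%) of each heavy chain constant gene in the FPKM summed over the 8 genes, for HSF WT (left bars) and HSF V30M (right bars), 1 value per group. Ighm, Ighg3 and Ighe have the lower share in HSF V30M, and Ighg2c, Ighg2b, Ighg1 and Ighd the higher. The share of Igha is slightly lower in HSF V30M and nearly the same in both groups.

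Within IgG alone, the order of the genes was Ighg3, Ighg2b, Ighg2c and Ighg1 in HSF WT, where no counting interval of one overlapped that of the next. In HSF V30M the order was Ighg2c, Ighg2b, Ighg1 and Ighg3, in which the intervals of Ighg2c and Ighg2b overlapped. Ighg3 made up 43.7% of IgG in HSF WT and 5.39% in HSF V30M. Ighg2c made up 15.4% in HSF WT and 42.6% in HSF V30M. Over all 10 genes, Igkc and Ighm were the highest and the second highest in both groups. Ighd and Ighe in HSF WT, Igha and Ighg1 in HSF V30M, and the 3 lowest genes in HSF V30M were neighbours whose intervals overlapped.

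Of the light chain genes, Igkc, the single kappa constant gene, was the highest of all 10 in both groups. Its FPKM was 68.8 in HSF V30M (499 to 587 fragments) and 1282 in HSF WT (6575 to 8853 fragments), an 18.6-fold difference with an interval of 17.1 to 20.4. This interval overlapped that of Ighm, whereas the heavy chain genes as a whole differed 11.5-fold, from 731 to 63.5. The level of Igkc over the heavy chain sum was therefore 1.08 in HSF V30M and 1.75 in HSF WT. In the table, the locus of Igkc also holds 6 other genes (the 5 kappa joining segments and Gm43291), so part of its reads may have been given to a neighbour.

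Iglc2, 1 of the lambda constant genes, had 0.33 in HSF V30M, about 2 to 3 fragments, and 7.76 in HSF WT, or 31 to 66. The ratio of 23.5 has a counting interval of 6.07 to 199.9. The other lambda constant genes were low as well. Iglc3 had 6.18 in HSF WT and 0.37 in HSF V30M, Iglc1 had 3.44 and 0.54, and Iglc4 is listed at 0 in both groups. With 2 to 4 fragments in HSF V30M, the fold of Iglc3 was 16.7 (interval 4.43 to 125) and that of Iglc1 6.36 (1.87 to 31.6). The locus given for Iglc1 holds 7 genes, as does that of Iglc3, and that of Iglc2 holds 2. Part of their reads may thus have been given to a neighbour. At this depth, Iglc4 could have been as high as 1.70 in HSF WT or 1.20 in HSF V30M without a fragment, by the limit of 3 fragments. Values of Iglc2 and Iglc3 are uncertain against each other, since 7.65% of the words of Iglc2 and 10.7% of those of Iglc3 are shared between them. To show this, the 60 coding bases in which Iglc1 differs most from Iglc2 are given for the 3 genes, 5′ to 3′ on the coding strand (minus strand of GRCm38, GENCODE M21), with positions at which they are not all alike in capitals:
Iglc2 (chr16:19198587-19198646): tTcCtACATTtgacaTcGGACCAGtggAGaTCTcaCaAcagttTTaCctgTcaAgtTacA
Iglc3 (chr16:19065416-19065475): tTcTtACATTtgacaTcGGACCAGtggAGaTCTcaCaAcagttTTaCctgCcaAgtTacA
Iglc1 (chr16:19061803-19061862): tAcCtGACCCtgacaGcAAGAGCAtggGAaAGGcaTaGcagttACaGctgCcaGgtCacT
Iglc3 differs from Iglc2 at 2 of these positions and Iglc1 at 28, and over the whole exon Iglc2 was 94.9% identical to Iglc3 and 67.3% to Iglc1.

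Igkc made up 99.4% of the FPKM of Igkc and Iglc2 in HSF WT and 99.5% in HSF V30M. With all lambda constant genes included the shares were 98.7% and 98.2%. With shares this close to the maximum and a few fragments per lambda gene in HSF V30M, likeness of the groups cannot be read from them, and the level of Igkc over Iglc2 was 165 in HSF WT and 208 in HSF V30M. The 100 Igkv genes summed to 79.6 FPKM in HSF V30M and 1249 in HSF WT, and the 3 Iglv genes to 0.24 and 3.77. Kappa held 99.7% of this sum in both groups, with 1 Iglv gene above 0 in HSF V30M. The 113 Ighv genes summed to 43.0 and 329, a 7.67-fold difference, which is smaller than the 15.7-fold difference of the Igkv genes. Many of these segments are short, and their FPKM depends strongly on the length used.

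Genes that build, carry or process immunoglobulin were compared next. Of 18 such genes, 8 had a mean FPKM of at least 1, all 8 were lower in HSF V30M and 5 were past 2-fold (Jchain, Cd79a, Cd79b, Mzb1 and Pou2af1), with a median log2 ratio of -1.96. Of these 5, 4 (without Jchain) reached the mean of 1 through HSF WT alone. The list was chosen with earlier results known, and 3.94% of all genes were past 2-fold in that direction. Jchain, which joins IgM and IgA into polymers, had 46.9 in HSF WT and 2.40 in HSF V30M, a 19.5-fold difference. The level of Ighm over Jchain was 8.08 in HSF WT and 8.27 in HSF V30M. Cd79a and Cd79b, the signalling chains of the B cell receptor, had 7.09 and 7.16 in HSF WT and 0.65 and 0.53 in HSF V30M. Their folds were 10.9 (interval 6.78 to 18.5) and 13.5 (7.54 to 26.5), both intervals below that of Ighg3 and above that of Ighg2c, and that of Cd79a reached into that of Ighd. Mzb1, which helps to assemble IgM, had 6.12 in HSF WT and 0.24 in HSF V30M, and Pou2af1, a B cell coactivator, 2.50 and 0.13. For the more widely expressed genes, HSF V30M is given first. Hspa5 and Hsp90b1, chaperones that every secretory cell uses, had 98.5 against 144 and 82.9 against 111. Fcgrt, the receptor that protects IgG from breakdown, had 86.5 and 89.8. Rag2, Dntt, Igll1 and Vpreb2, used by B cell precursors, are listed at 0 in both groups. Vpreb1 (0.15 and 0.091) and Rag1 (0.05 and 0.020) were above 0, at levels too low to read a direction from.

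Among 12 genes of B cells, 6 had a mean of at least 1, all 6 were lower in HSF V30M and 3 were past 2-fold, Cd22 and Pax5 among them, with a median log2 ratio of -1.12. Of these 3, 2 reached the mean of 1 through HSF WT alone. Over all genes, 3.94% were past 2-fold lower. With HSF V30M given first from here on, Cd22, an inhibitory receptor, had 1.26 against 8.49. Pax5, the factor that keeps B cell identity, had 0.44 and 2.85, or 6.48-fold. Cd37, shared with other leukocytes, had 9.75 and 16.4, and Ebf1, which fat and stromal cells also express, had 17.1 and 17.8. Of 10 plasma cell genes, 7 had a mean of at least 1, 5 of them lower and 2 higher, and 2 (Derl3 and Tnfrsf13b) were past 2-fold lower, with a median of -0.34. Derl3, a factor of protein quality control in secretory cells, had 1.70 and 5.64. Irf4, a factor needed by plasma cells, had a log2 ratio of -0.34. Sdc1 and Xbp1, which other cells of the nerve also express, had 69.3 against 60.5 and 45.6 against 52.3. Slamf7, higher like Sdc1, had 1.76 and 0.844, and Fkbp11 had 1.16 and 3.19. Below the mean of 1, Tnfrsf17 had nearly the same level in both groups, 0.60 and 0.605. Prdm1 had 0.78 and 1.10, and Cd28 had 0.12 and 0.551.

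**Figure D5:**
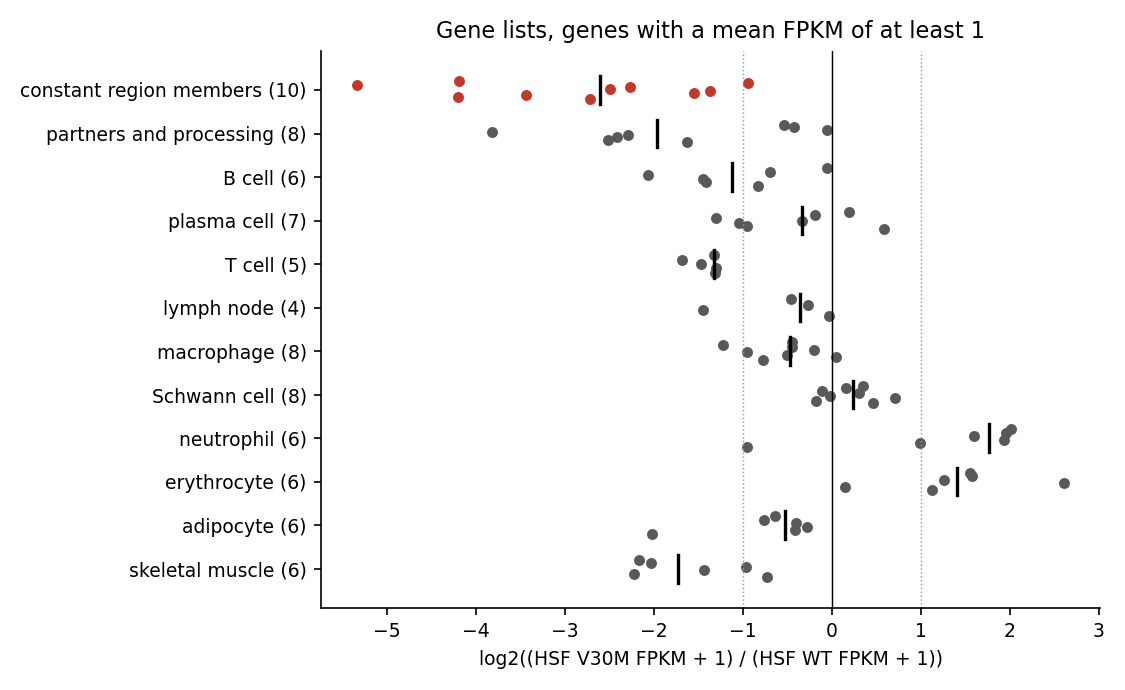
log2((HSF V30M FPKM + 1) / (HSF WT FPKM + 1)) of single genes whose mean FPKM was 1 or more, by list, with the number of genes in brackets. Black bars are medians, dotted lines a 2-fold difference. The constant region genes (red) go from -5.34 to -0.95, while the medians of the other lists go from -1.96 to 1.76.

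Markers of other cells differed between the groups too, and their part in the result was not tested. Over all genes, 3.94% were past 2-fold lower, the share that stands beside each count of lower genes below. Of 10 T cell genes, the 5 with a mean of at least 1 (Cd2, Cd4, Lck, Trbc2 and Cd3e) were past 2-fold lower, 4 of which reached that mean through HSF WT alone. Below it, Cd3d had 0.51 and 0.486 and Cd3g 0.26 and 0.364, and the list summed to 4.36 FPKM in HSF V30M and 19.3 in HSF WT. Of 8 lymph node genes, 4 had a mean of at least 1, all 4 were lower, and Cxcl13, which attracts B cells, was past 2-fold, at 4.45-fold lower. Their sum was 37.4 and 53.6. Ccl21a had 25.1 and 34.9, Lyve1, of lymphatic vessels, 8.88 and 10.9, and Ccl19 1.40 and 1.45. Madcam1, an adhesion molecule of vessels that lymphocytes enter by, had 0.087 in HSF WT and is listed at 0 in HSF V30M. Of the 6 skeletal muscle genes, all were lower and 4 past 2-fold (Ckm, Mylpf, Acta1 and Myh4), with a sum of 42.0 against 149. Ckm had 8.97 and 43.8, Mylpf 7.55 and 33.9, Acta1 7.41 and 21.8, and Tnnt3, which was not past 2-fold with 1 added, 10.9 and 22.2. The 6 adipocyte genes summed to 1250.2 and 1892, with Fabp4 at 462 and 722, Adipoq at 319 and 543, Cidec at 170 and 225, Plin1 at 173 and 210 and Lep, the one past 2-fold, at 7.47 and 33.4.

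Neutrophil and erythrocyte genes were mostly higher in HSF V30M. Of the 6 neutrophil genes, 4 were past 2-fold higher, S100a9, Ngp, S100a8 and Camp, beside 3.98% of all genes. Ltf was higher and Csf3r lower, at 2.63 against 6.05, neither past 2-fold with 1 added, and the list summed to 30.8 in HSF WT and 104 in HSF V30M. All 6 erythrocyte genes, led by Hbb-bs, Hba-a1, Hba-a2 and Hbb-bt, were higher, 5 of them past 2-fold, with a sum of 291 against 101. The 8 macrophage genes summed to 394 and 601, and only C1qb, of complement C1q, was past 2-fold, at 58.7 against 139. Lyz2 had 194 and 266, C1qa 70.6 and 96.5 and Csf1r 31.2 and 36.0. None of the 8 Schwann cell genes, among them Mbp, Pmp22 and Prx, was past 2-fold in either direction, and they summed to 12634.5 and 11046.

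The genes nearest in ratio to the median of the 10 constant region genes, outside immunoglobulin segments and among genes of a mean FPKM of 5 or more, were Coch, Mir1893, Gm14295, Gm44948 and Gm4366. Coch, the gene of cochlin, an extracellular matrix protein of the inner ear, had a log2 ratio of -2.63. The others had ratios from -2.67 to -2.54. The likeness rests on 2 group values and is a description. By the log2 ratio with 1 added, Ighg3 ranked as the 40th lowest of 15620 genes, Igkc 85th, Ighm 88th, Igha 155th, Iglc2 216th, Ighe 390th, Ighg2c 439th and Ighd 676th. Without the added 1, Ighg3 was 19th of 15121, Ighm 42nd, Igkc 43rd, Ighd 287th and Ighg2c 370th, and the ranks of Ighe (33rd) and Iglc2 (36th) rest on 2 to 3 fragments.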

How the data were processed

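Sciatic nerve libraries of 4 mice, 2 per group by the labels, were sequenced on Ion Torrent. The methods state n = 4 and leave it unclear if this is per group. The authors aligned the reads to GRCm38 (C57BL/6J) and deposited 1 Cuffdiff table, with STAR, Cufflinks and Cuffdiff named in the submitters' processing notes, versions not given in the sources used here. The deposited FPKM is 1 estimate per gene and group over its libraries. The deposited columns of fold changes, p-values and q-values of the authors' comparison were not used. Columns A and G were assigned from the sample titles. Decimal commas were replaced by points, and 23 genes with too many alignments were left out.

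Ratios were log2((HSF V30M + 1) / (HSF WT + 1)) over the 15620 genes whose mean FPKM was 1 or more. A gene was called past 2-fold on this scale, with no test. The members and lists were chosen with earlier results of these data known. The genes named were all members, the other lambda constant genes, the 4 highest genes of each list, genes past the fold where a count is 5 or fewer, and the 5 genes nearest in ratio; other list genes were named after their values were seen, and some list genes are not reported here by name.

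To estimate fragments, 17276 genes of 1 transcript that share no locus were used. In them, FPKM times kilobases, less 200 bases, clustered around 0.0481 and 0.0647 in HSF WT and 0.0389 and 0.0458 in HSF V30M, taken as what 1 fragment is worth per library. Of low values, 94.3% of 404 in HSF V30M (within 5%) and 94.4% of 1602 in HSF WT (within 2%) lay near a sum of whole fragments. The worths were picked from these same values, so these shares are not a check of them. Ranges go from the shortest transcript to the longest, and 95% intervals (exact Poisson, and conditional binomial for folds, on the shortest transcript) and floors of 3 fragments cover counting error only. Exons, positions and sequences are from GENCODE M21 (GRCm38), which holds 50369 of the gene identifiers. For Ighg3 and Ighe, the table's locus holds 1 of the 2 annotated transcripts. Secreted and membrane forms cannot be told apart. Steps were tested on simulated data. The scripts used biopython 1.88, scipy 1.17.1, numpy 2.4.6, matplotlib 3.10.9, pandas 2.3.3 and Python 3.11.15.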

Additional observations from a re-analysis of the deposited data

How the results depend on the processing

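No paired analysis was possible because levels are given per group only, not per mouse, and for the same reason no replicate could be left out. All 10 genes stayed lower in HSF V30M with a pseudocount of 0.1, with none and with median-of-ratios scaling. The number past 2-fold was 9 as reported. It was 10 with a pseudocount of 0.1 (beside 5.56% of all genes) or with none (4.32%). With median-of-ratios scaling (3.97%) or no minimum mean (2.51%) it was 9. At a fold of 1.5 all 10 were past it, beside 8.44% of all genes, and at a fold of 4, 7 were, beside 1.86%. A minimum mean FPKM of 5 left 7 genes, all past 2-fold, beside 2.92%. The median log2 ratio of -2.60 was -3.64 with a pseudocount of 0.1, -3.93 with none and -3.44 over the 7 genes whose mean FPKM was 5 or more. Of single genes, Ighg3 moved from -5.34 to -5.85 (pseudocount of 0.1) or -5.92 (none), and Ighe from -1.55 to -4.76 without a pseudocount. For both genes, the value with 1 added lies outside the counting interval, which belongs to the ratio without a pseudocount.

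Weighted by length, the share of Ighm was 59.4% in HSF WT and 38.2% in HSF V30M, that of Ighg2c 4.95% and 22.5%, that of Ighg3 13.7% in HSF WT and that of Igha 8.40% in HSF WT. By construction, shares were higher among IgG genes alone, where Ighg3 held 5.39% in HSF V30M and 43.7% in HSF WT and Ighg2c 42.6% and 15.4%. Among switched isotypes alone Ighg3 held 4.65% and 34.4%, Ighg2c 36.8% and 12.1%, and Igha 13.6% and 20.8%. In each of these settings Ighm and Ighg3, where included, had the lower share in HSF V30M and Ighg2c the higher. With every lambda constant gene, the share of Igkc was 98.7% in HSF WT and 98.2% in HSF V30M, which turns the order of the groups, and 99.7% in HSF WT by variable segments. The 10 genes of the B cell, plasma cell and partner lists past 2-fold stayed within 1.5 times in the alternatives run. With a fold of 1.5, 8.44% of all genes were past it lower, against 3.94% at 2-fold. The B cell list then went from 3 to 5 lower genes, and the plasma cell list from 2 to 3. Skeletal muscle went from 4 to 6, macrophage and adipocyte each from 1 to 3 and neutrophil from 0 to 1. The counts of the other lists stayed the same. Depth limits Ighe and Iglc2, with 2 to 3 fragments in HSF V30M, and Ighd, with 10 to 32.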
